A study of Mus musculus with 4 samples.

Results

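The genes described here are 9 genes of the thymic epithelium, the stroma that surrounds developing T cells in the thymus: Prss16, Tbata, Psmb11, Foxn1, Ccl25, Pax1, Pax9, Aire and Ly75. They were read in RNA labelled as fetal lung at E18.5, shortly before birth, on 2 Affymetrix 3' expression array designs, MOE430A and MOE430B. The members were every probe set (a group of short probes read as 1 signal) annotated to those 9 symbols, which gave 17 probe sets, 12 on MOE430A and 5 on MOE430B, of 45265 on both designs and 18193 genes. The genes were chosen with ratios of these same arrays known, so their ratios describe the arrays and are no test of them.

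The double knockout embryos are labelled BALB/c Myf5:Myod null, lacking both Myf5 and MyoD, transcription factors that skeletal muscle needs in order to form. The wild type embryos are labelled BALB/c. There was 1 array per genotype on each design, 4 in all, so no p-value could be computed and the number of arrays limits the precision of every value. The labels do not say how many embryos gave the RNA of an array, whether the arrays of a genotype shared an RNA sample, or whether neighbouring organs were removed.

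The thymus forms from the pharyngeal pouches and comes to lie in the chest above the heart, next to the lungs. Its epithelium divides into a cortex, where T cell precursors are kept and tested for a usable receptor, and a medulla, where those that react to the body's own proteins are removed. Foxn1, a forkhead transcription factor, is needed for the epithelium to mature, and mice without it have no functional thymus and no hair. Pax1 and Pax9 are paired box factors of the pharyngeal pouches that also act in the skeleton. Ccl25 is a chemokine that attracts thymocytes through its receptor Ccr9. Psmb11 is the proteasome subunit beta5t of the cortical epithelium, Prss16 is a serine protease of the same cells, and both take part in making the peptides shown to T cell precursors. Aire drives the display of tissue proteins in the medulla, Ly75 (DEC-205) is an endocytic receptor of cortical epithelium and dendritic cells, and Tbata is a protein found in thymus, brain and testis.

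Several measurements of the arrays bear on every ratio below. Myf5 read 8.94 in the array labelled Myf5:Myod null and 110.5 in the array labelled wild type, both below the floor set out next. Myod1 on MOE430A contradicted the labels, at 1081 in the array labelled Myf5:Myod null and 85.0 in the array labelled wild type, at least 3.81-fold higher. The position of their probes relative to the deleted sequence was not given, so the directions rest on the labels alone. Xist, the RNA of the inactive X chromosome, was 2.76-fold and 3.64-fold lower in the array labelled Myf5:Myod null by its 2 passing probe sets, so sex of the embryos and genotype cannot be told apart. Probe sets for 18S ribosomal RNA, 3 per design, read a median 3.91-fold higher in that array on MOE430A and 3.13-fold higher on MOE430B. Lung epithelium genes were strong in both genotypes, with Sftpc, surfactant protein C, at 113337 in the array labelled Myf5:Myod null and 78525 in the array labelled wild type. Heart muscle genes were strong too, and Myl2, a myosin light chain of the ventricle, read 86011 and 61909 in the same order of arrays.

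A probe set passed the filter if its brighter signal was at or above the median signal of its design (787.4 for MOE430A, 855.1 for MOE430B). The floor was the 25th percentile (283.8 and 278.1), and lower signals were raised to it before a ratio was formed, so a ratio with 1 signal under the floor is given as at least N-fold. Of the 17 probe sets, 10 passed and 7 did not. The filter admits a probe set through its brighter array, which fixes the direction of a probe set that is over it in 1 array alone. That held for 8 of the 10, all over the filter in the array labelled wild type alone, so the probe sets that passed are no sample of all 17. The spread of 1 log2 ratio was 0.24 (SD) for the 100 probe sets carried by both designs. It leaves out a mean shift of -0.22 in their log2 ratios from MOE430A to MOE430B. Whether it holds for other probe sets was not tested. Probe sets of 1 gene spread by 0.37 (SD) on MOE430A and 0.71 on MOE430B, a spread that includes real differences between the transcripts they read.

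Prss16, Tbata and Ccl25 were far lower in the array labelled Myf5:Myod null on MOE430A. Of the 17 probe sets, 5 were at least 2-fold lower and none was at least 2-fold higher. All 5 were on MOE430A, where 2.05% of the 12203 passing probe sets were at least 2-fold lower and 1.80% at least 2-fold higher. On MOE430B, where 8.00% of 12892 passing probe sets were at least 2-fold lower and 9.70% at least 2-fold higher, none of the 5 member probe sets was either. These shares stand beside the counts as background only, because the members were chosen on this contrast. In RNA from whole tissue, fewer cells of a type and less RNA per cell cannot be told apart.

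**Figure D1:**
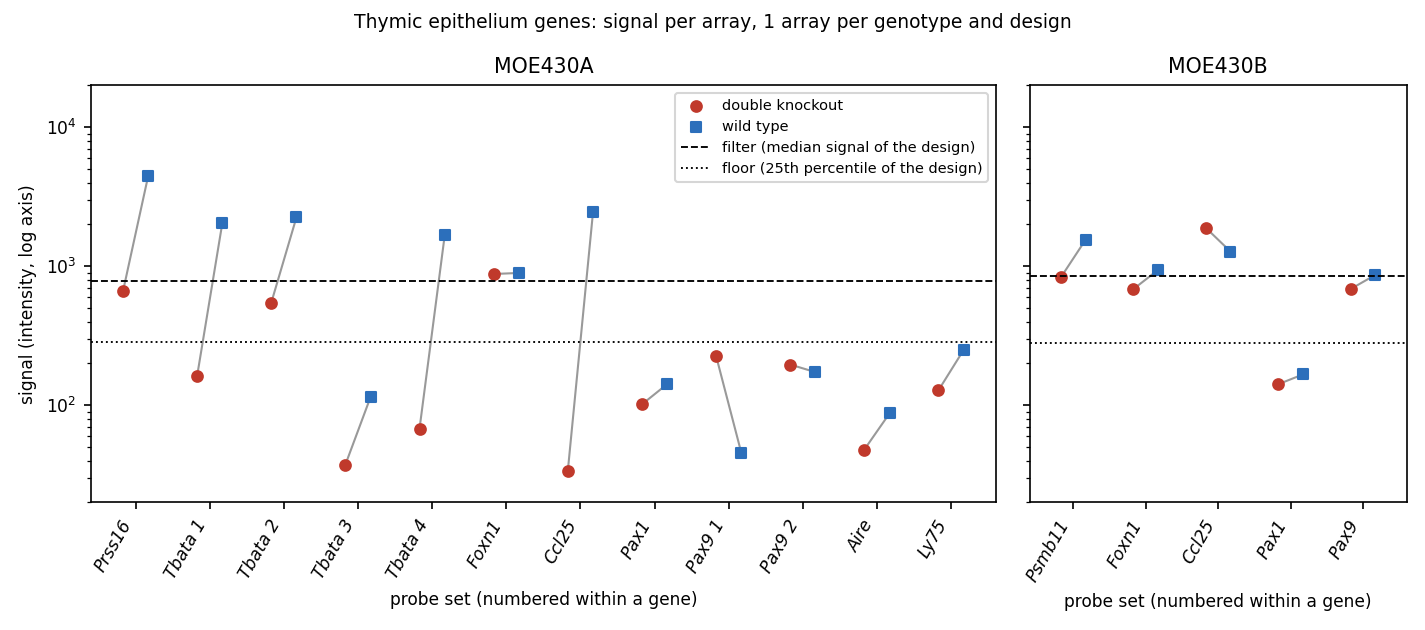
Signal of each of the 17 probe sets (intensity, log axis) in the array labelled Myf5:Myod null (red circles, left of each pair) and in the array labelled wild type (blue squares), on MOE430A and MOE430B, with the filter (dashed) and the floor (dotted). Prss16, 3 of 4 Tbata probe sets and Ccl25 on MOE430A lie below the filter in the array labelled Myf5:Myod null and above it in the other, while Foxn1 on MOE430A reads 879.3 and 894.3.

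Prss16 had the brightest wild type signal of the 9 genes on MOE430A. Its single probe set read 660.7 in the array labelled Myf5:Myod null and 4466 in the array labelled wild type, 6.76-fold lower (log2 ratio -2.76). The signal lay at the 45.0th percentile of the array labelled Myf5:Myod null and at the 91.2nd percentile of the array labelled wild type. Both signals were above the floor of 283.8, and the fold is a measured value and no bound. Of the 12203 passing probe sets of MOE430A, 18 had a lower ratio.

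Tbata was read by 4 probe sets on MOE430A. The brightest read 546.2 in the array labelled Myf5:Myod null and 2250 in the array labelled wild type, 4.12-fold lower (log2 ratio -2.04), the smallest decrease past 2-fold among the members. Another read 162.4 and 2045 in the same order, at least 7.21-fold lower. The next read 67.8 in the array labelled Myf5:Myod null and 1672 in the array labelled wild type, at least 5.89-fold lower. The remaining one read 37.3 and 114.7, below the floor in both arrays, and gave no fold. All 3 passing probe sets were below the filter in the array labelled Myf5:Myod null and passed through the other array, which fixed their direction. They carry name endings that Affymetrix gives to probe sets that may match several transcripts, and without such probe sets Tbata had no passing value.

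Ccl25, the chemokine, was read once on each design, and the designs differed in direction. On MOE430A it read 33.5 in the array labelled Myf5:Myod null and 2443 in the array labelled wild type, at least 8.61-fold lower, the largest of the members' values and bounds. Those signals lay at the 4.26th and the 81.8th percentile of their arrays. On MOE430B it read 1890 in the array labelled Myf5:Myod null and 1276 in the array labelled wild type, 1.48-fold higher (log2 ratio 0.57). The MOE430A probe set passed through the array labelled wild type alone, and the MOE430B probe set was over the filter in both arrays. The directions of Ccl25 therefore depend on the probe set, and which of its transcripts each probe set reads was not tested.

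Psmb11 had 1 probe set, on MOE430B. It read 831.7 in the array labelled Myf5:Myod null and 1548 in the array labelled wild type, 1.86-fold lower (log2 ratio -0.90), the nearest of the members to 2-fold from the other side. A rank of 1188 from the lowest among 12892 passing probe sets shows how common ratios of that size were on this design.

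The 250 bases before the annotated starts of Ccl25, Tbata and Psmb11, members with the values just given, are printed so that their letters can be set beside these values. RefSeq promoter sequence of build GRCm38.p6 matched 8 of the 9 genes, with 2 starts for Ccl25. Prss16 had no entry, so none of the windows below covers it. Capitals mark GACGC or, on the other strand, GCGTC, which contains the core sequence that the forkhead domain of Foxn1 is known to bind. The windows are chr8:4324960-4325209 (plus strand) and chr8:4349338-4349587 (plus strand) for Ccl25, chr10:61171714-61171963 (plus strand) for Tbata and chr14:54625060-54625309 (plus strand) for Psmb11.
Ccl25 start 1: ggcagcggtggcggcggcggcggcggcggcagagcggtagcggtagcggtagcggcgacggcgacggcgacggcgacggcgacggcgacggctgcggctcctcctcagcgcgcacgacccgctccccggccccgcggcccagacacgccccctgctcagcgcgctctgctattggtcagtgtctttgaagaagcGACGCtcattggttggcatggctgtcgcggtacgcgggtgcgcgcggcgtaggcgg
Ccl25 start 2: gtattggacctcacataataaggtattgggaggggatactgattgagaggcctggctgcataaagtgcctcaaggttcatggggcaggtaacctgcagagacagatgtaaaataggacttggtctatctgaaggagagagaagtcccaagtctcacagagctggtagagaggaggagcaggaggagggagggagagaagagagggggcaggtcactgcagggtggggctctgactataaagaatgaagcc
Tbata: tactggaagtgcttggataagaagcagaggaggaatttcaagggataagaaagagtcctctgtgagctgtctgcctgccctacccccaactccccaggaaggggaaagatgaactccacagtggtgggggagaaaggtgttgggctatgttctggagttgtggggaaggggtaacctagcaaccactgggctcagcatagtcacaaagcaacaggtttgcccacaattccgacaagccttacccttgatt
Psmb11: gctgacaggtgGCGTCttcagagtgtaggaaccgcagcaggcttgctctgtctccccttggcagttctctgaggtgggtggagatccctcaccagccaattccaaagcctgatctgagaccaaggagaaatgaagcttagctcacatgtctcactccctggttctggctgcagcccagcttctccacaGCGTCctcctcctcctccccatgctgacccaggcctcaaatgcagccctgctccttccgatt

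The first Ccl25 start has 1 match, 56 bases before it, in a window of 74.8% G and C, and the second has none, in a window of 51.6%. Psmb11 has 2 matches, 239 and 62 bases before its start, and Tbata has none. Over all 9 windows of the 8 genes, 4 windows held the motif, those of Aire and Pax1 being the others. Of the 32851 promoter windows of the same length, 22.6% held it. A match is a description of the letters and says nothing of binding, and a window without one says only that these letters are not in it.

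Foxn1, the regulator of the epithelium, stayed inside 2-fold on both designs. On MOE430A it read 879.3 in the array labelled Myf5:Myod null and 894.3 in the array labelled wild type, a log2 ratio of -0.02. On MOE430B it read 684.0 and 939.8 in the same order, a log2 ratio of -0.46. Both differences are smaller than the spread of probe sets of 1 gene on their design. The MOE430B difference is larger than the 0.24 of the shared probe sets. That probe set was over the filter in the array labelled wild type alone, which fixed its direction. The higher signals were only 1.14 and 1.10 times the filter of their designs, near the 54th and 53rd percentile of the wild type arrays, so neither probe set was bright in either genotype.

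The pouch factors Pax1 and Pax9 gave no value past 2-fold. Pax1 read 101.4 in the array labelled Myf5:Myod null and 141.8 in the array labelled wild type on MOE430A, and 141.7 and 166.5 on MOE430B, all below the floor. Pax9 read 226.8 and 45.6 in that order by 1 probe set of MOE430A and 196.2 and 173.0 by the other, again below the floor. On MOE430B Pax9 read 686.2 in the array labelled Myf5:Myod null and 866.1 in the array labelled wild type, a log2 ratio of -0.34, with the higher signal just past the filter. No fold is given for the probe sets under the floor, where signals have no order.

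Aire and Ly75 were also below the floor in both genotypes. Aire read 47.9 in the array labelled Myf5:Myod null and 87.3 in the array labelled wild type. Ly75 read 128.0 and 249.96 in the same order. In all, 7 of the 17 probe sets were below the floor in both arrays, with signals between 37.3 and 249.96. These arrays thus gave no measured level for Pax1, Aire and Ly75.

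**Figure D2:**
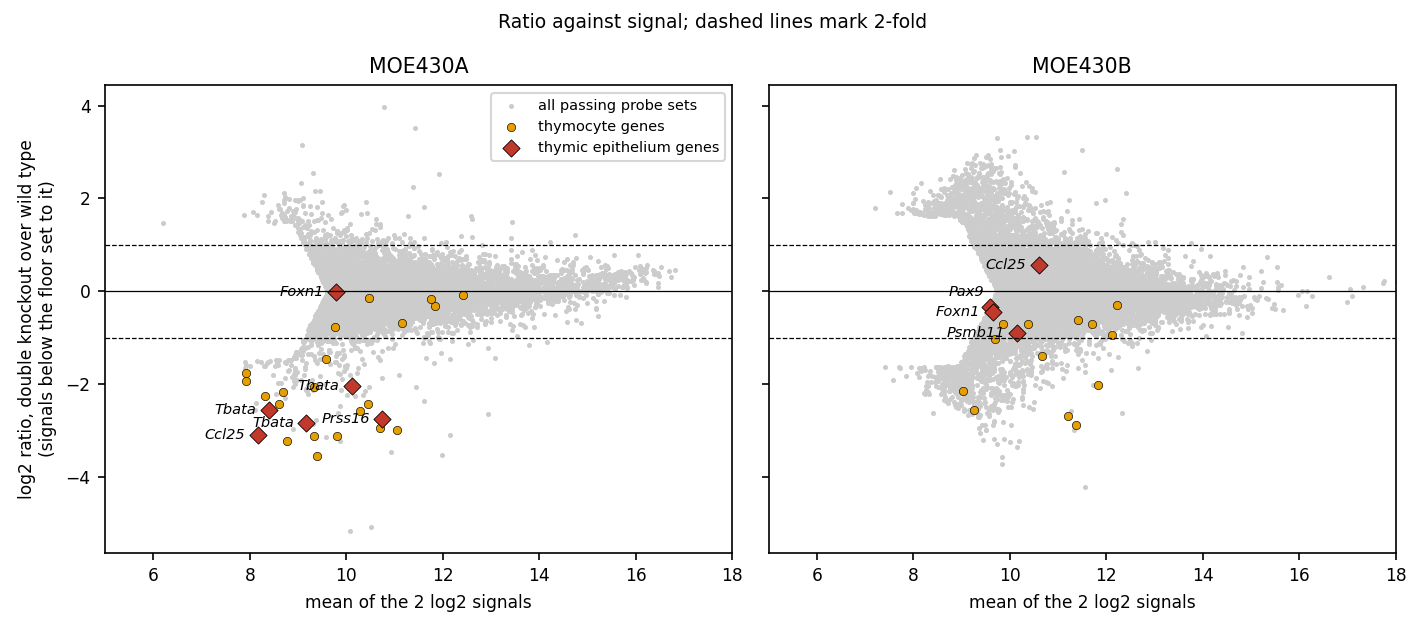
Log2 ratio of the array labelled Myf5:Myod null over the array labelled wild type against the mean of the 2 log2 signals, for passing probe sets of MOE430A (left) and MOE430B (right), with thymic epithelium genes as red diamonds and thymocyte genes as orange circles. Prss16, Tbata and Ccl25 lie among thymocyte genes below the lower dashed 2-fold line on MOE430A, and the members on MOE430B lie inside the 2-fold lines among more widely spread probe sets.

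The probe sets of MOE430A nearest to Prss16 in their pair of log2 signals were those of thymocyte genes in 3 of 5 cases. Over the 2 arrays of that design, the nearest was Satb1, a chromatin organiser of thymocytes, at 596.3 in the array labelled Myf5:Myod null and 4578 in the array labelled wild type (distance 0.15 in log2 units). Thy1, a surface protein of thymocytes, followed with 755.3 and 6021 (distance 0.47), and Cd8a, a chain of the CD8 co-receptor, with 603.3 and 3247 (distance 0.48). The next were Xist (0.63) and Gtf2h4, a subunit of transcription factor TFIIH (0.63). With 2 arrays, such nearness describes a pair of values only.

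Genes of thymocytes, the T cell precursors that the epithelium surrounds, were lower in the same arrays. Of 27 listed genes, 24 had a probe set of their own and 18 passed, all 18 were lower in the arrays labelled Myf5:Myod null and 12 at least 2-fold, beside 3.63% of all 12559 measured genes. Of the 18, 12 were over the filter in the array labelled wild type alone, among them 11 of the 12 past 2-fold, so the filter fixed their direction and the count is a description only. Their median log2 ratio was -2.05, with 6 of the 18 ratios as bounds, against -0.02 for all genes. It was -0.85 over 24 genes without a filter and -0.84 with the floor at the median. Rag1, which cuts antigen receptor genes, read 135.7 in the array labelled Myf5:Myod null and 3308 in the array labelled wild type, at least 11.7-fold lower. Cd3d, part of the CD3 complex, read 71.3 and 2645 in that order, at least 9.32-fold lower. The genes of this list closest to no difference were Ets1 (log2 ratio -0.08, down to -0.69 by its other probe sets) and Zap70 (-0.17). Cd8a came next by its brightest probe set (-0.30, down to -2.70 by its others). Cells other than thymocytes express some listed genes too, and their part in these ratios was not tested. The summed MOE430A signal of the thymocyte list was 23218 in the array labelled Myf5:Myod null and 62434 in the array labelled wild type. That of the 12 thymic epithelium probe sets on MOE430A was 3088 and 14582 in that order, no probe set being at 0. These sums count a gene once per probe set. They leave out MOE430B, and with it Psmb11 and the Ccl25 probe set that was higher in the array labelled Myf5:Myod null. What part thymus tissue in the RNA has in these ratios was not tested.

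The median difference of thymocyte genes was smaller on MOE430B, but values depended on the probe set read. On MOE430A alone the thymocyte median was -2.43 over 15 genes, and on MOE430B alone it was -0.71 over 6 genes. Satb1 had a log2 ratio of -2.94 by its brightest probe set on MOE430A and -0.71 on MOE430B, and Cd8a had -2.43 and -0.30. Other probe sets of MOE430B were lower, Satb1 at least 4.42-fold by its other one, and Cd8a 6.48-fold (932.4 in the array labelled Myf5:Myod null and 6042 in the array labelled wild type) and 1.63-fold by its other two. Zap70, with 1 passing probe set on each design, had -0.17 on MOE430A and -0.63 on MOE430B. The shared probe sets read a median 3.96-fold higher on MOE430B than on MOE430A, so an equal number stands for a dimmer probe set on MOE430B. With both designs placed on 1 scale through them, 6 member probe sets passed the filter, all of MOE430A.

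Receptors on thymocytes for signals of the epithelium gave mixed values. Ccr9, the receptor of Ccl25, read 100.5 in the array labelled Myf5:Myod null and 1528 in the array labelled wild type, at least 5.38-fold lower. Cxcr4, the receptor of Cxcl12, read 847.4 and 1486 in that order, 1.75-fold lower. Notch1, the receptor of the Delta ligand Dll4, had a log2 ratio of 0.16 by its brightest probe set and of -1.29 by its other, and Kit, the receptor of Kitl, had 0.18. Il7r read at most 357.1 in the arrays labelled Myf5:Myod null and 362.1 in those labelled wild type, and Ccr7 191.7 and 60.4, all below the filter. Thus 1 of 4 measured receptors was at least 2-fold lower, beside 3.63% of all 12559 measured genes. That receptor, Ccr9, is also in the thymocyte list. It was over the filter in the array labelled wild type alone, which fixed its direction.

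Other genes of the thymic stroma were split in direction. Of 32 listed genes, 19 passed, 10 lower and 9 higher in the arrays labelled Myf5:Myod null, with a median log2 ratio of -0.01. Of the 19, 1 (5.26%) was at least 2-fold lower, beside 3.63% of all genes. Hoxa3, a homeobox gene of the pharyngeal pouches that the lung also expresses, was 2.32-fold lower (919.9 in the array labelled Myf5:Myod null and 2139 in the array labelled wild type), but its other probe set had a log2 ratio of 0.09. Cd83, a surface protein of thymic epithelium and dendritic cells, was 1.88-fold lower at 540.6 and 1019. The highest were Epcam, an adhesion protein of most epithelia (0.94, and -0.06 by its other probe set), and Cldn3, a claudin (0.54, with 0.01 to 0.66 over its 4 probe sets), both also genes of lung epithelium. Named after their values were seen, the signals Cxcl12 (-0.88, with -1.27 to -0.09 over its 3 probe sets), Dll4 (-0.53) and Kitl (-0.01) of the thymic epithelium are made by other cells of the lung as well.

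**Figure D3:**
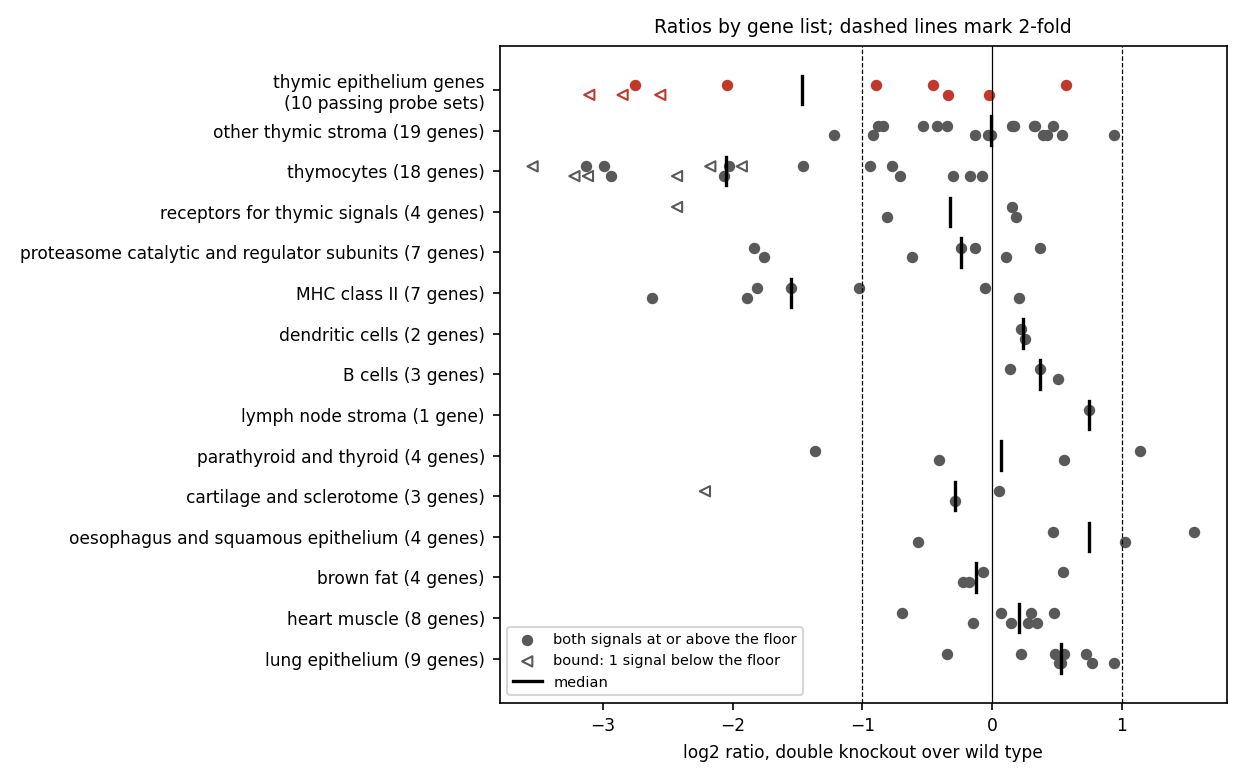
Log2 ratio of the array labelled Myf5:Myod null over the array labelled wild type for each passing probe set of the thymic epithelium genes (top, red) and each measured gene of the other lists (grey), with the median of each list as a black bar and bounds as open triangles. The thymocyte and MHC class II lists have medians of -2.05 and -1.55, while other thymic stroma has -0.01 and lung epithelium 0.53. The bar of the thymic epithelium genes is over probe sets, unlike the others, and by gene their median is -0.62.

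Relatives of Psmb11 in the proteasome differed among themselves. Of 8 listed subunits, 7 passed and 2 were at least 2-fold lower in the array labelled Myf5:Myod null, beside 3.63% of all genes. These were Psmb9, at 368.8 in the array labelled Myf5:Myod null and 1317 in the array labelled wild type (3.57-fold lower), and Psmb8, at 650.2 and 2198 (3.38-fold lower), each over the filter in the array labelled wild type alone. Both are inducible subunits of the immunoproteasome, and Psmb10, also inducible, read 1091 and 1677 in that order, 1.54-fold lower. Psme1, a subunit of the proteasome activator, had a log2 ratio of 0.37 and Psmb6, a subunit of the constitutive proteasome, 0.11. The list median was -0.24.

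MHC class II genes, which the thymic epithelium shares with dendritic cells, macrophages and B cells, were mostly lower in the arrays labelled Myf5:Myod null, with a median of -1.55. Of 7 measured genes, 5 were at least 2-fold lower, beside 3.63% of all 12559 measured genes. Of these 5, 2 were over the filter in the array labelled wild type alone, which fixed their direction. H2-Ea was 6.15-fold lower and H2-Ab1 3.71-fold lower, while Ctss, a lysosomal protease, had -0.06 and H2-DMa 0.21 (-0.14 by its other probe set). Few markers of dendritic cells and B cells passed, and no list of macrophage genes was read. Which cells the MHC class II values come from was not tested. Of 9 dendritic cell genes 2 passed, Irf8 (0.26, and -0.01 by its other probe set) and Zbtb46 (0.22, and 0.55 by its other), and the other 7 gave no passing probe set. Of 8 B cell genes 3 passed, Pax5 (0.51), Cd79a (0.37) and Ighm (0.14, with -0.55 to 0.86 over its 3 probe sets).

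Markers of other tissues near the lung and thymus were mixed. Of 10 parathyroid and thyroid genes 4 passed. Tg, thyroglobulin, was 2.57-fold lower at 322.4 in the array labelled Myf5:Myod null and 828.6 in the array labelled wild type. Slc5a5, the iodide transporter, was 2.21-fold higher at 1756 and 796.5 in that order. Of all genes, 3.63% were at least 2-fold lower and 3.85% at least 2-fold higher. Tg was over the filter in the array labelled wild type alone and Slc5a5 in the other array alone, which fixed their directions. Tshr, the thyrotropin receptor, had 0.55 and Pax8, a thyroid factor, -0.41 (1.43 by its other probe set). Of 11 genes of cartilage and sclerotome 3 passed. Col2a1, the collagen of cartilage, was at least 4.64-fold lower at 106.9 and 1317. It was over the filter in the array labelled wild type alone, which fixed its direction. Col9a1 had -0.29 (2.20-fold lower by its other probe set) and Meox1 0.06. Of 9 genes of oesophagus and squamous epithelium 4 passed, and Krt4 and Krt15, keratins of stratified epithelium, were 2.94-fold and 2.04-fold higher, Krt4 at least 8.90-fold by its other probe set, with Krt5 at 0.47 and Krt13 at -0.57 (at least 3.93-fold higher by its other probe set). Those other probe sets of Krt4 and Krt13 were over the filter in the array labelled Myf5:Myod null alone, which fixed their direction. Cxcl13, the single passing gene of 5 of lymph node stroma, had 0.75. Brown fat genes ranged from -0.23 (Ppargc1a) and -0.18 (Fabp4, -0.59 by its other probe set) to -0.07 (Prdm16, down to -0.56 by its others) and 0.55 (Dio2).

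Genes of the lung epithelium were mostly higher in the arrays labelled Myf5:Myod null. Of 9 measured lung epithelium genes, 8 were higher and 1 lower, none at least 2-fold by its brightest probe set, with a median of 0.53, from Cdh1, E-cadherin (-0.35), and Sftpd (0.22) up to Scgb1a1, the club cell secretory protein (0.77), and Epcam (0.94). Sftpc had 0.53 by its brightest probe set. Its other read 1118 in the array labelled Myf5:Myod null and 178.9 in the array labelled wild type, at least 3.94-fold higher. That other probe set was over the filter in the array labelled Myf5:Myod null alone, which fixed its direction. The 8 heart muscle genes had a median of 0.21, with Nppa, atrial natriuretic peptide, at -0.70 and Myl7, the atrial myosin light chain, at -0.14 the lowest, and Tnnt2, a cardiac troponin, at 0.34 (0.12 and 1.04 by its other probe sets) and Myl2 at 0.47 the highest by brightest probe set.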

How the data were processed

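Total RNA (6 µg per sample, per the labels) was labelled with biotin and hybridised to Affymetrix arrays. The authors deposited linear intensities, with a single signal for each probe set, made with MAS5, per the submitters' processing notes; its settings were not given, nor detection calls. The 2% trimmed mean of the arrays was about 1500 on both designs, so each array had been scaled alone, and ratios were formed within a design only.

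The members and gene lists were chosen with earlier results of these data known. The 64 control probe sets of each design were removed. Signals of the arrays labelled Myf5:Myod null were divided by 1.004 (MOE430A) and 1.008 (MOE430B), which sets the median ratio of passing probe sets to about 1, and are printed so. The filter and floor were the 50th and 25th percentile of each design. Gene names came from the platform annotation at GEO. For MOE430A, 20380 probe sets had 1 gene, 691 several and 1555 none, and for MOE430B 14661, 245 and 7605. Of the 1-gene probe sets, 20351 and 14486 matched the RefSeq gene table of GRCm38.p6 by Entrez ID, which was used for names only.

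Members were read probe set by probe set, all 17 reported. A gene of another list was represented by its brightest passing probe set, and of each list the 2 highest and 2 lowest genes were named, with all receptors and the 5 probe sets nearest to Prss16. With 1 array per group no test was made, and genes were counted at 2-fold. The steps were tested on simulated arrays with changes planted only in the brighter probe sets and equal noise on both designs. Recovery of changes in dimmer probe sets was therefore not tested. Alternatives covered scaling, floor, filter, probe set choice and design. Python 3.11.15 was used.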

Additional observations from a re-analysis of the deposited data

How the results depend on the processing

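The count of 5 member probe sets at least 2-fold lower stayed 4 or 5 in every alternative that recomputed it but 2. Because all 5 are on MOE430A, several alternatives could not lower it: MOE430A alone, both designs on 1 scale, no filter and the lower floor. The number of passing member probe sets ran from 4, with a 75th percentile filter or on MOE430B alone, to 17 without a filter. Without probe sets that may cross-hybridise 2 were left, of Prss16 and Ccl25, since the passing Tbata probe sets are left out by construction, and on MOE430B alone there were 0. The median log2 ratio of passing member probe sets was -1.47, with Tbata counted 3 times. Read by gene, as the other lists were, the members had a median of -0.62 over 6 genes, 5 lower and 1 higher. Of these 6, 2 were at least 2-fold lower, beside 3.63% of all genes. The median over probe sets moved with which ones were read. It was -2.66 on MOE430A alone and with both designs on 1 scale, and -0.40 on MOE430B alone. With the filter at the 75th percentile it was -2.80, and without a filter -0.0244. It was -0.97 with the floor at the median and -0.46 once possibly cross-hybridising probe sets were dropped. The direction of Ccl25 as a gene turned from 0.57, its MOE430B probe set, to -3.11 with a 75th percentile filter, on MOE430A alone and with both designs on 1 scale, and to -1.27 with the median over its probe sets. The thymocyte median of -2.05 was -2.43 on MOE430A alone, -0.71 on MOE430B alone, -2.51 with the floor at the 10th percentile, -0.84 with the floor at the median, -0.85 without a filter and -2.48 with a 75th percentile filter. The other thymic stroma median of -0.01 was -0.28 on MOE430B alone. Over all probe sets of MOE430A, 250 were at least 2-fold lower, against 105 with the floor at the median, 393 without a filter, 79 with a 75th percentile filter and 155 once possibly cross-hybridising ones were dropped. On MOE430B the count was 1031, against 328, 1577 and 239 in the first 3 of these and 68 with both designs on 1 scale. Of 126 values recomputed under 12 alternatives, 92 moved by less than the 0.24 of the shared probe sets, or for counts by at most 1.5 times. Some of these values could not change under an alternative, so the 92 is no measure of stability. Prss16 ranged from -2.73 to -2.75 under the other scalings and moved to -2.50 with the floor at the median. The lower floor and the filter, probe set and MOE430A alternatives could not change Prss16, which has 1 probe set with both signals above the floor. On MOE430B alone Prss16 had no value. The cause of the other differences was not tested. Low signal is 1 limit, with 7 of 17 probe sets below the floor in both arrays. No paired analysis was possible because each genotype had 1 array per design.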
